A study of Homo sapiens with 12 samples.

Results

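In HCT116 colon cancer cells kept in ICG-001, the signal of every gene row at 96 h was set over its signal at 12 h. A row of the table, named by a gene symbol, was a member when it was above the detection limit in at least 1 of those 2 columns. Of the 34687 rows of the table, 17118 were members. The ratio was set beside the same ratio in DMSO, the solvent control of the line and so the measure of time in culture without the drug.

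The series holds HCT116 and PANC1, a pancreatic cancer line, each given DMSO at 0.05% or ICG-001 or C646 at 10 uM and collected after 12 or 96 h. RNA was read on Illumina bead arrays, and each of the 12 groups has 1 column, the authors' mean of 2 arrays for each of the 6 HCT116 columns used here. The cells of both time points are of the same 1 line, with no clone, genotype or knockdown named. The culture schedule was not the same at the 2 times: density when compound was added was lower for the longer treatment, which also involved passaging and repeated changes of medium and compound, so time and culture handling cannot be told apart within a treatment. With single-array values not used here, no column has an error, no test was possible and every difference below is a size between columns. Where a signal is given as 1 value to another, the first is that at 12 h and the second that at 96 h, and the pair after "against" is that of DMSO.

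ICG-001 binds the acetyltransferase CBP and blocks its contact with beta-catenin, the coactivator that carries the WNT signal into the nucleus. C646 inhibits the acetyltransferase activity of both CBP and its relative p300. WNT signalling induces several of its own inhibitors, AXIN2 and DKK1 among them, and it drives proliferation in the intestinal crypt.

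A row counted as above background where its signal exceeded the mode of its column by the number of SDs that leaves out 99% of a normal background, and that SD came from the lower side of the mode, which came to a signal of 144 at 12 h and 143 at 96 h with ICG-001. Both columns were above it in 14276 rows, the 12 h column alone in 1289 and the 96 h column alone in 1553. Just inside the limit lay AMIGO2, with signals of 129.7 to 143, and just outside lay TGFB3, with 144 to 135. Rows under the limit in all 6 HCT116 columns, 15443 in number, had an SD of 0.07 in the log2 ratio of 96 over 12 h, in ICG-001 and in DMSO. This describes the scatter of background and not that of bright genes. Among 201 genes read by 2 rows, the log2 ratios with ICG-001 differed by a median of 0.13 between rows and correlated across genes (Pearson r = 0.68, Spearman rho = 0.67; genes are not independent replicates). Of 29 such pairs with at least 1 row past 1.5-fold, 24 had both rows on the same side of 0 and 8 had both past 1.5-fold.

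Since background was left in the signal, dim rows show smaller ratios than their genes may have. With members split by mean signal into 3 parts of 5706 rows, 0.158% of the lowest part passed 1.5-fold, against 7.36% of the middle part and 13.0% of the highest. As for the label of the cells, the epithelial markers EPCAM, with signals of 7587 to 9562 at 12 and 96 h with ICG-001, KRT8, KRT18, KRT19, CDH1, CDX2 and GPA33 were above the limit. The intestinal markers KRT20, VIL1, CDX1, CEACAM5 and LGALS4 were not. Of the fibroblast list only COL1A1 was above it, at 173 to 209, of the blood and immune list CD79A, at 142 to 146, and LYZ, at 148 to 157, and of the endothelial list none. No marker of these lists passed 1.5-fold in either treatment.

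With ICG-001, 697 rows were at least 1.5-fold higher at 96 h than at 12 h, which is 4.07% of members, and 474 were lower, which is 2.77%. On the same rows DMSO gave 258 higher (1.51%) and 260 lower (1.52%). At 2-fold the counts were 128 higher and 68 lower with ICG-001, and 22 and 27 with DMSO. The drug-treated cells thus changed in 1171 rows and the control cells in 518, while the median of all rows was -0.01 and 0.01 on the log2 scale, respectively.

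The kinds of change were told apart. A row changed beyond DMSO when its ratio with ICG-001 passed 1.5-fold and exceeded the DMSO ratio by at least 1.5-fold in the same direction, which is the same as a 1.5-fold change in the ICG-001 over DMSO ratio between the time points. There were 296 such rows that rose (1.73% of members) and 228 that fell (1.33%), together 44.7% of the rows changed with ICG-001. A row changed with DMSO when both ratios passed 1.5-fold in the same direction, as in 91 rises (0.532%) and 52 falls (0.304%). A row changed against DMSO when the directions were opposite, as in 2 rows that rose with ICG-001 and fell with DMSO (0.0117%) and 13 that did the reverse (0.0759%). In 8 rows a change with DMSO was also beyond it. Background correction of the arrays changed these counts, but not their order, and it moved the share of rises among the rows changed against DMSO from 13.3% of 15 to 30.9% of 55.

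**Figure D1:**
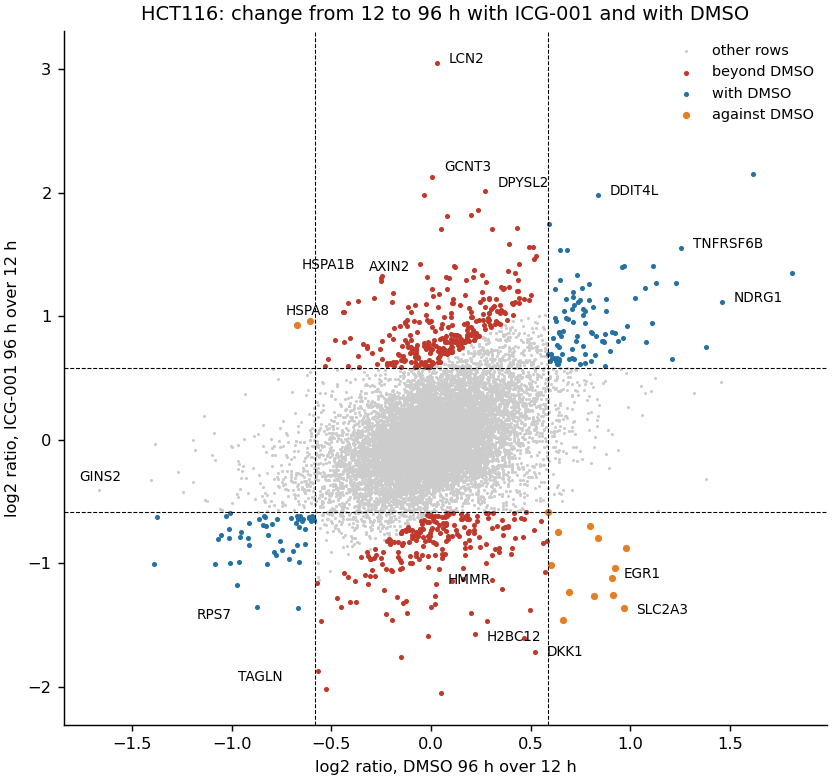
Each point is 1 of the 17118 gene rows, placed by its log2 ratio of 96 h over 12 h in DMSO (horizontal axis) and in ICG-001 (vertical axis), both unitless log2 ratios of signal. Dashed lines mark 1.5-fold, and colours mark rows changed beyond, with or against DMSO, among them LCN2 at 3.05 with ICG-001 and 0.03 with DMSO.

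The rows that changed beyond DMSO came to this by different routes, as the 4 columns show. Of the 296 that rose, 212 lay within 1.5-fold of DMSO at 12 h, 70 were lower than DMSO there and 14 higher. At 96 h 114 of the 296 were above DMSO, 179 were within 1.5-fold of it and 3 were below. Of the 228 that fell, 92 stood above DMSO at 12 h, 128 within 1.5-fold and 8 below, and at 96 h 89 were below DMSO, 122 within 1.5-fold and 17 above. These counts share their columns with the call itself, and so describe the rows and do not test them.

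The largest rise was that of LCN2, which encodes lipocalin 2, a secreted protein that binds bacterial siderophores. Its signal with ICG-001 was 578 at 12 h and 4802 at 96 h, while with DMSO it was 151 and 154, close to the limit. This was 8.3-fold, with an already higher signal than in DMSO at 12 h. GCNT3, a glycosyltransferase that builds branched mucin-type sugars, followed the same course, from 371 to 1622 with ICG-001 against 199 to 199.7 with DMSO. Both genes with the largest rises thus kept 1 level in the control cells while they rose in the drug. KLK7, a secreted serine protease, went from 455 to 1607 with ICG-001 and from 278 to 320.1 with DMSO. FOXD1, a forkhead transcription factor, went from 861 to 3126 against 663 to 781. In these 4 genes the 12 h signal with ICG-001 was already above both DMSO columns, and the 96 h signal was the highest of the 4.

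Other large rises began under the control level. DPYSL2, a cytoskeletal protein that binds tubulin, had 768 at 12 h with ICG-001, under the 1813 of DMSO, and 3112 at 96 h, above the 2190.1 of DMSO. CEMIP, a protein involved in hyaluronan breakdown, went from 211 to 834 against 302 to 295 in DMSO. SGK1, a kinase induced by serum and glucocorticoids, went from 163 to 573 against 207 to 219, and a second row of this gene changed beyond DMSO too, by 1.31 on the log2 scale. DDIT4L, a relative of the mTORC1 inhibitor DDIT4, started at 284 and reached 1126, level with the 1108 that DMSO reached from 620.2. The first 3 of these ended above the control cells, whereas DDIT4L ended level with them. CPE, a carboxypeptidase that trims prohormones, went from 998 to 3350.2 against 941 to 1418, and the calcium-binding protein CALB2 from 214 to 704 against 219 to 295. Both started near the control level and ended above it.

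TAGLN, an actin-binding protein, had the largest fall of the named genes. Its signal was 654 at 12 h and 179 at 96 h with ICG-001 and 258 to 174 with DMSO, so that a 12 h signal well above the control came down to the level that both treatments shared at 96 h. DKK1, a secreted inhibitor of WNT receptors, took another course. It was level at 12 h, with 3602 in ICG-001 and 3689.7 in DMSO, and then parted to 1095 and 5294, a fall of 3.29-fold in the drug beside a higher signal in the control. ATG12, a ubiquitin-like protein of autophagosome formation, went from 4129 to 1357 with ICG-001 against 1435 to 1984 with DMSO.

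The splicing factor gene SRSF7 went from 2071 to 749 against 966 to 659, and the row of the box C/D small nucleolar RNA SNORD25 from 1135 to 427 against 1031 to 883. The histone genes H2BC12, from 1233 to 414 against 828 to 965, and H1-2, from 900.4 to 341 against 662 to 609, ended under both control columns. ISG20, an interferon-induced exonuclease, went from 751 to 289 against 346 to 488, and FAM216A from 877 to 292 against 500.5 to 495. Of these 6 rows, all but SRSF7 had their lowest signal of the 4 columns at 96 h with ICG-001.

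**Figure D2:**
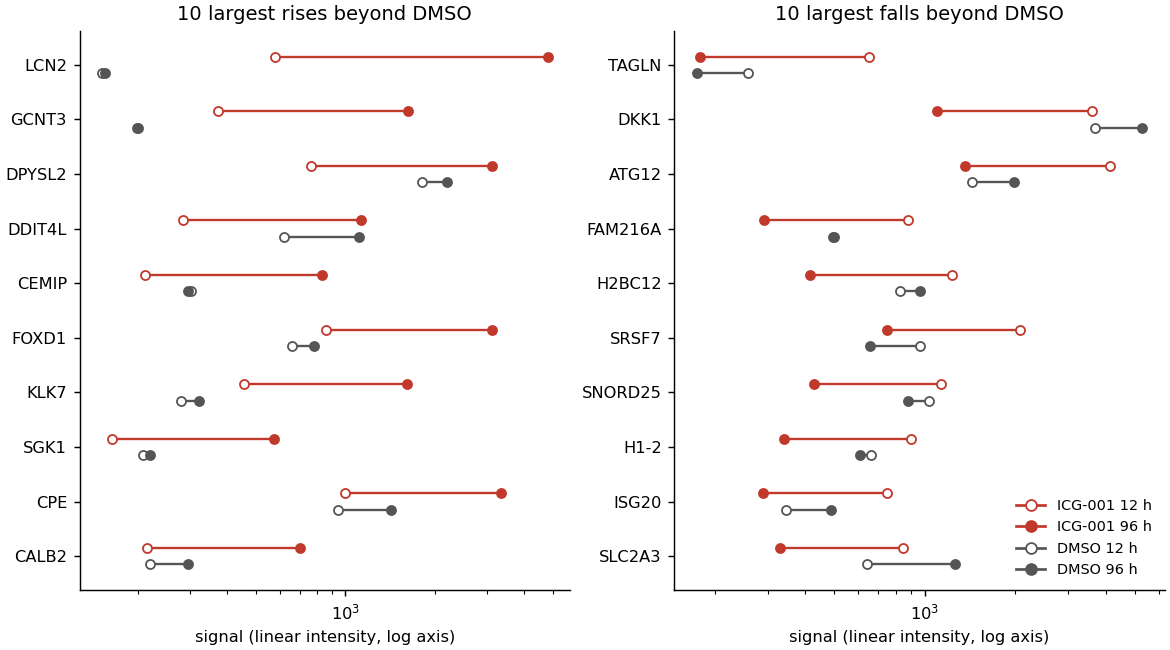
Signal (linear intensity on a log axis) at 12 h (open circles) and 96 h (filled circles) with ICG-001 (red) and DMSO (grey) for the 10 named genes with the largest rises and the 10 with the largest falls beyond DMSO. LCN2 rose from 578 to 4802 with ICG-001 while its DMSO signals were 151 and 154, and TAGLN came down from 654 to 179, beside 174 in DMSO at 96 h.

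Changes shared with DMSO were led by DDIT4L and CPE, described above, and by TNFRSF6B, a decoy receptor for the FAS ligand, which went from 429.9 to 1262 with ICG-001 and from 451 to 1077 with DMSO. EPAS1, the alpha subunit of hypoxia-inducible factor 2, went from 264 to 767 and from 486 to 761, ending at like signals in both. Its rise with ICG-001 was also beyond DMSO. Among falls, the ribosomal protein gene RPS7 went from 2765 to 1081 and from 2389 to 1301. RBM14, a coactivator that binds RNA, went from 2290.2 to 1137 and from 1764 to 830.5, and SRPRB, a subunit of the signal recognition particle receptor, from 2301 to 1143 and from 1067 to 603. In these falling genes the 2 treatments moved by at least 1.5-fold the same way.

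The rows that moved against DMSO were few. SLC2A3, a glucose transporter, had signals of 847 to 329 with ICG-001 and of 642 to 1256 with DMSO. ARRDC4, an arrestin-like protein, had 574 to 239.7 and 152 to 285, and VGF, a secreted neuropeptide precursor, had 4153 to 1727 and 1049 to 1846. In these last 2 genes the 12 h signal with ICG-001 was the highest of the 4 columns, and both treatments were close to each other at 96 h. The immediate early transcription factor genes EGR1, with 1738 to 802 against 1361 to 2554, and FOS, with 356 to 194 against 331 to 652, and DUSP5, a phosphatase of ERK, with 6747 to 3289.8 against 2338 to 4431, fell with the drug and rose without it. HSPA8, the constitutive heat shock protein 70, was the sole named gene of the reverse pattern, with 6191 to 11770.4 against 10606 to 6654. The other row of that pattern is that of its processed copy HSPA8P5, whose sequence is close enough that the 2 probes may read the same RNA.

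**Figure D3:**
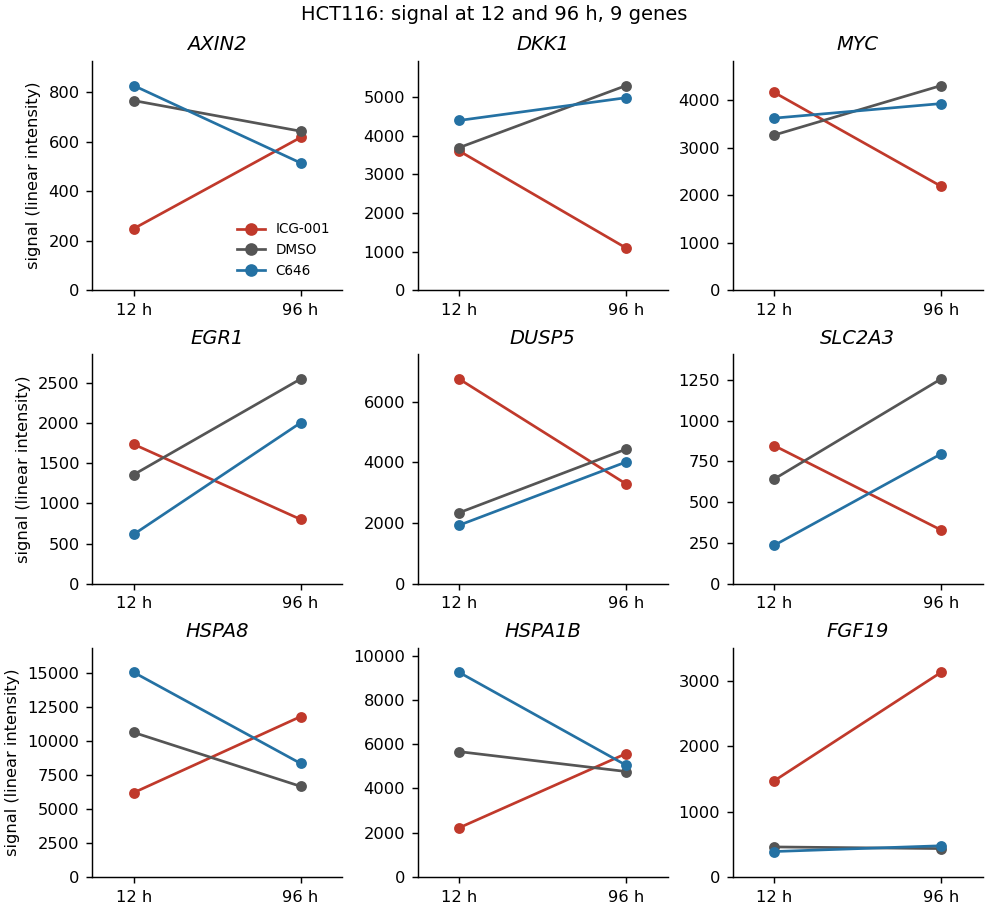
Signal (linear intensity) of 9 genes at 12 and 96 h with ICG-001 (red), DMSO (grey) and C646 (blue), 1 column per point. EGR1, DUSP5 and SLC2A3 fell with ICG-001 and rose with DMSO, HSPA8 did the reverse, and AXIN2 rose from 249 to 617 with ICG-001 toward the 643 of DMSO.

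DNA replication genes changed far more in the control cells than in the drug. Of the 61 genes listed 58 were members, and 38 of these fell by 1.5-fold with DMSO, which is 65.5% of them, while 6 fell with ICG-001, which is 10.3%, and none rose in either. Of all members 1.52% fell with DMSO and 2.77% with ICG-001. In the brightest part of the members 312 of 5706 rows fell with ICG-001. The median of the replication list was -0.17 with ICG-001 and -0.72 with DMSO on the log2 scale, and 56 of 58 genes had the higher ratio with ICG-001. The columns show where the difference lay. At 12 h 49 of the 58 genes were lower with ICG-001 than with DMSO, with a median log2 ratio of -0.40, and at 96 h 20 were, with a median of 0.14.

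Genes that load and fire origins had the lowest DMSO median of the roles, -0.95, against -0.31 with ICG-001. GINS2, a subunit of the replicative helicase complex, had signals of 1237 to 931 with ICG-001 and of 2608 to 821 with DMSO. MCM4 had 557 to 416 against 1231 to 519, MCM5 731 to 575 against 1483 to 647, and MCM6, likewise of the helicase ring, 2978 to 2113 against 4674 to 2145. The 12 h DMSO column was by far the highest of the 4 in each of these genes, and the other 3 lay closer together. MCM2, with 781 to 507 against 1215 to 468, and GINS3, with 733 to 443 against 552 to 274, fell in both.

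Among polymerases and fork proteins 15 of 19 fell with DMSO and 2 with ICG-001, RFC3, a subunit of the clamp loader, and PRIM1, the primase. The sliding clamp gene PCNA had 1339 to 1327 with ICG-001 and 2276 to 1341 with DMSO, so that 3 of the 4 columns lay between 1327 and 1341. FEN1, the flap nuclease, had 1368 to 1316 against 2176 to 1089, and CHAF1B, of the histone chaperone that follows the fork, 491 to 463 against 741 to 326. RRM2, the small subunit of ribonucleotide reductase, was the member with the largest fall in ICG-001, from 1088 to 624 against 1149 to 548, and the checkpoint kinase gene CHEK1 went from 864 to 514 against 918 to 474. CCNE2, a cyclin of S-phase entry, had 357 to 349 and 476 to 182.

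For mitosis genes more fell with the drug than without it. Of 62 genes listed 59 were members, of which 16 fell with ICG-001, which is 27.1%, and 2 with DMSO, which is 3.39%, with no rise in either. Of all members 2.77% fell with ICG-001, 1.52% with DMSO and 1.33% beyond DMSO. The median of the mitosis list was -0.40 with ICG-001 and -0.16 with DMSO, and 9 of its genes fell beyond DMSO. At 12 h 45 of 59 were lower with ICG-001 than with DMSO and at 96 h 52 were. HMMR, a spindle protein, was level at 12 h, with 1511 in ICG-001 and 1502 in DMSO, and stood at 671 and 1528 at 96 h. CCNB2, a cyclin of the mitotic kinase, went from 2139 to 1106 against 2393 to 2129.8, KIF20A, a motor of cytokinesis, from 869.8 to 472 against 1135 to 1418, and the kinase gene AURKA from 1242 to 725 against 1532 to 1515. In these genes the DMSO columns differed by under 1.5-fold. Each column is RNA of a whole culture, so fewer cells in a phase of the cycle and less RNA per cell cannot be told apart. BUB1 of the spindle checkpoint went from 854 to 529 against 1318 to 1528, the condensin gene NCAPD2 from 845 to 524 against 1339 to 1409.6, and CDC20, which activates the anaphase-promoting complex, from 7545 to 4569 against 4954 to 4814. Both BIRC5, the survivin gene, with 776 to 576 against 808 to 560.2, and MKI67, with 219.6 to 194 against 242 to 216, stayed short of 1.5-fold in both treatments.

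Promoter sequences of these genes were read from RefSeq (GRCh38.p14) as the 250 bases before the annotated start and searched for 4 motifs, of which the pair that the cell cycle lists held most often is given. An E2F site, searched as TTTCCCGC, TTTGGCGC, TTTCGCGC or TTTGCCGC on both strands, where a palindromic stretch can hold overlapping matches, was in 15 of 49 promoters of DNA replication members, which is 30.6%, in 3 of 51 of mitosis members, which is 5.88%, in 4.48% of those of all members' genes and in 2.79% of all 27305 promoters. A CCAAT box, the letters CCAAT on both strands, was in 70.6% of mitosis promoters, 53.1% of replication promoters, 35.2% of those of all members' genes and 33.0% of all. Its share was higher still in histone genes, at 82.4%, and in cholesterol synthesis genes, at 80.0%, and it was 58.1% in ATF4 targets. The other 2 motifs, a C/EBP-ATF element (TGATGNAA) and an SREBP site (TCACNCCAC), had a share of 16.1% in ATF4 targets and 0 of 15 matches in cholesterol synthesis genes, against 3.19% and 0.875% of all promoters, respectively. A match is a description of letters and not of binding. The 5 promoters shown are those of genes described here, chosen for holding matches. Capitals mark the matches of 1 motif in each, the E2F site in the first 2 and the CCAAT box in the other 3, and matches of the other motif are in lower case. GINS2 (chr16:85688955-85689204, minus strand) and MCM6 (chr2:135876444-135876693, minus strand) carry 1 and 4 E2F matches, HMMR (chr5:163460382-163460631, plus strand) and CCNB2 (chr15:59104896-59105145, plus strand) 5 and 4 CCAAT matches, and the histone gene H2BC12 (chr6:27146859-27147108, minus strand), which fell with ICG-001, 6 CCAAT matches.
GINS2: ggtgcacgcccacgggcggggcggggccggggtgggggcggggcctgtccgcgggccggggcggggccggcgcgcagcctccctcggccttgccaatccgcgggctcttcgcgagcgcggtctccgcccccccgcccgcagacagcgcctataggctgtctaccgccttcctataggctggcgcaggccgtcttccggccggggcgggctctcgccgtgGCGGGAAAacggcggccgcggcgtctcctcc
MCM6: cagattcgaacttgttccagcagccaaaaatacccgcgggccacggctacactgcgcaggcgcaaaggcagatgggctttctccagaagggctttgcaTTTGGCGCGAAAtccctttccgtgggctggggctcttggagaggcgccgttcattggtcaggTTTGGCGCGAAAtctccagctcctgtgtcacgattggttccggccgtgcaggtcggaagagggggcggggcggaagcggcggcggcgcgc
HMMR: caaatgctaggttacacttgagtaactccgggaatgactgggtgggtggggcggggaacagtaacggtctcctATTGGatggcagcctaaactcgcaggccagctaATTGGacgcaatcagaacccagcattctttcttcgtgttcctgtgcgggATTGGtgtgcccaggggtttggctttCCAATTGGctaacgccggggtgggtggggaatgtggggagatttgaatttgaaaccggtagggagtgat
CCNB2: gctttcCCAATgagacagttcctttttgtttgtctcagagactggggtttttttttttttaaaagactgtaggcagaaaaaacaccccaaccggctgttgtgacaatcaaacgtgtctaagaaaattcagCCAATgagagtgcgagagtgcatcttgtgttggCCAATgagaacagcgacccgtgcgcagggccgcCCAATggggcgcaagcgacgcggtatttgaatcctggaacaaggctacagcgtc
H2BC12: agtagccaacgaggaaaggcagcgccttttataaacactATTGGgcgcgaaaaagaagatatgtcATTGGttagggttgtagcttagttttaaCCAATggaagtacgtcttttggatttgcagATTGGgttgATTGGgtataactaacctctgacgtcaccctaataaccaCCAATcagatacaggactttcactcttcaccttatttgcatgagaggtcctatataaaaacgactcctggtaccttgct

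Histone genes split by kind. The replication-dependent clusters and linker histones had 13 members. Of these 5 fell with ICG-001, all beyond DMSO, and 1 with DMSO, beside 2.77%, 1.33% and 1.52% of all members, respectively. Besides H2BC12 and H1-2 the falls with ICG-001 were H2AC18, from 317 to 166 against 219 to 229, H2AC20, from 393 to 219 against 342 to 296, and H2BC5, from 427 to 242 against 372 to 556. The list median of this kind was -0.40 with ICG-001, 0.06 with DMSO and 0.45 with C646, where 4 rose, beside 3.78% of all members. H4C3 fell with DMSO, from 20021 to 11608, and had 22074 to 17661 with ICG-001. Of the 6 variant histones none fell with the drug, and H3-3B, a histone made throughout the cycle, rose from 761 to 1238 against 1329 to 1623. Cluster histone genes are near-identical in sequence, so a row may read more than 1 of them. What part of the mRNA of these genes the labelling captured was not tested.

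**Figure D4:**
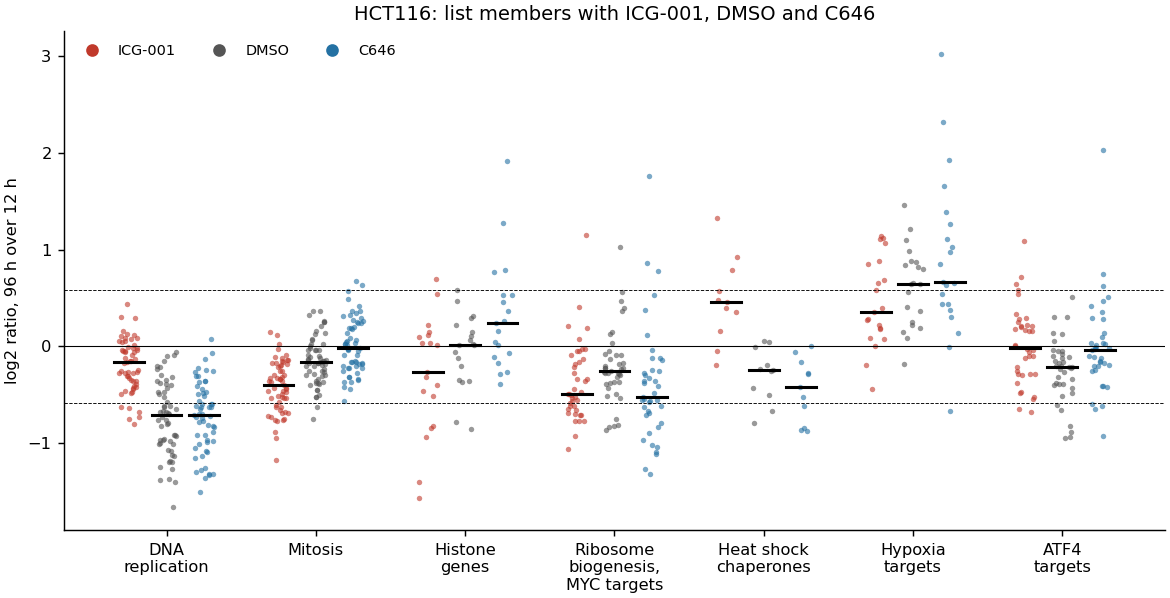
Log2 ratio of 96 h over 12 h (vertical axis) for every member of 7 gene lists (horizontal axis) with ICG-001 (red), DMSO (grey) and C646 (blue), with black bars at the list medians and dashed lines at 1.5-fold. DNA replication has a median of -0.17 with ICG-001 and -0.72 with DMSO, and mitosis -0.40 and -0.16.

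In the nucleolar and rRNA-processing part of the ribosome biogenesis list, 25 of 27 genes were members, 10 fell with ICG-001 and 3 with DMSO, and all 25 had a ratio under 0 with ICG-001 and 23 with DMSO, the medians being -0.55 and -0.28. With C646 13 fell and the median was -0.61. Of all members 2.77% fell with ICG-001, 1.52% with DMSO and 3.27% with C646. NOLC1, a nucleolar chaperone, had 969 to 463 with ICG-001 and 1130.0 to 794 with DMSO. DKC1, which makes pseudouridine in rRNA, had 4988 to 2913 against 3580.0 to 2882, and FBL, the rRNA methyltransferase fibrillarin, was the sole one to fall beyond DMSO, with 4607 to 3008 against 3862 to 3959. MYC, the transcription factor for which many of these genes are targets, fell from 4164 to 2190.2 with ICG-001 beside 3267 to 4307 with DMSO, and MXD4, which competes with MYC for its partner MAX, rose in both, from 322 to 713 and from 548 to 1113. The ribosomal protein genes as a list stood near 0, at -0.06 with ICG-001 and 0.02 with DMSO. Of its 75 members 6 fell, RPS7, RPL29, RPS21, RPL23A, RPL34 and RPL14, beside 2.77% of all members and 312 of the 5706 in the brightest part. RPL29 went from 1523 to 681 against 2204 to 1483, and RPL23A from 2371 to 1424 against 2263 to 2381. Many ribosomal protein genes have processed copies, so such rows are uncertain.

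Heat shock chaperones were lower with ICG-001 than with DMSO at 12 h in all 11 members, and in 6 of 11 at 96 h. Their median ratio over time was 0.45 with ICG-001 and -0.25 with DMSO, 3 genes rose with the drug and none fell, while none rose and 2 fell without it. Of all members 4.07% rose with the drug and 1.52% fell without it. HSPA1B, the inducible heat shock protein 70, went from 2223 to 5573 against 5665 to 4767, and DNAJA1, a co-chaperone, from 2462 to 4260.1 against 6287 to 4648. HSPH1, an exchange factor of heat shock protein 70, had 2802 to 4161 against 5053 to 2914. In these genes the drug column was the lowest of 4 at 12 h, and at 96 h the treatments lay nearer to each other. With C646 no chaperone rose and 4 fell, beside falls in 3.27% of all members. Chaperones of the endoplasmic reticulum differed from this, with list medians of -0.02 and -0.12 and 1 rise, HSPA5, the chaperone BiP, from 1047 to 1618 against 553 to 734.

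Targets of ATF4, the transcription factor of the amino acid stress response, were above DMSO at both times. Of 38 members, 37 had a higher signal with ICG-001 at 12 h and 35 at 96 h, with median log2 ratios over DMSO of 0.74 and 0.92. Over time the list stood at -0.01 with ICG-001 and at -0.21 with DMSO, where 6 fell, which is 15.8% beside 1.52% of all members. With ICG-001 the effectors and hormones stood apart, at a median of 0.61, while the medians of the other roles lay between -0.11 and -0.01. Of 8 regulators 4 had a ratio above 0, and 2 fell, both beyond DMSO, beside 2.77% and 1.33% of all members. The 2 that fell were DDIT3, from 2373 to 1512 against 414 to 405, and ATF3, from 590.2 to 367 against 273 to 265. Of 6 effectors and hormones 3 rose, beside 4.07% of all members. FGF19, a hormone of bile acid control, went from 1473 to 3135 against 459.9 to 435, STC2, a secreted glycoprotein, from 2619 to 4305 against 1109 to 1366, and NUPR1, a small stress protein, from 167 to 262 against 151 to 136. GDF15, a stress cytokine, was short of 1.5-fold at 8740.5 to 13074 against 2607 to 2859. Genes of amino acid synthesis, amino acid transport and tRNA charging had no change past 1.5-fold with ICG-001, as in PSAT1, of serine synthesis, at 2541 to 3709 against 1243 to 816, and the transporter gene SLC7A5 at 13802 to 12886 against 4137 to 2329.8.

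Other stress genes moved singly. Of 17 members of the NRF2 list, NQO1, a quinone reductase, rose beyond DMSO from 1937 to 3944 against 1917 to 2347, FTH1, the ferritin heavy chain, rose from 3364 to 5148 against 1159 to 1356, and TXNRD1, thioredoxin reductase, fell from 2443 to 1479.6 against 1758 to 1794. Of 7 metallothioneins MT1X rose beyond DMSO, from 3332 to 6309 against 1922 to 1723, and MT1F rose from 620.1 to 960.2 against 666 to 875. The rises were 11.8% of the NRF2 members and 28.6% of the metallothioneins, where 4.07% of all members rose, 1.73% beyond DMSO. The NRF2 fall was 5.88% of that list, beside 2.77% of all members. Metallothionein genes are close copies, so their rows are uncertain.

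Genes induced by hypoxia rose in both treatments, in 12 of 21 members with DMSO and 8 with ICG-001, beside 1.51% and 4.07% of all members. The list medians were 0.65 and 0.35, respectively. The roles differed. For oxygen sensing and signalling, 7 of 11 rose with DMSO and 3 with ICG-001, and 10 of 11 had the lower ratio with the drug. KDM3A, a histone demethylase, had 417 to 502 with ICG-001 and 687 to 1361 with DMSO, ANKRD37 347 to 456 against 996 to 2137, and NDRG1, a widely used hypoxia marker, rose in both, from 3333 to 7219.6 and from 2405 to 6621. In collagen modification, PLOD1, a lysyl hydroxylase, rose beyond DMSO from 2845 to 6154 against 3651 to 4334, as did P4HA2, a prolyl hydroxylase, from 314 to 657 against 424 to 484, while P4HA1 rose in both, from 471 to 853 and from 748 to 1368.

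Glycolysis genes had medians of 0.14 with ICG-001 and 0.42 with DMSO over 21 members, and 18 of them had the lower ratio with the drug. They were already lower with ICG-001 at 12 h in 16 of 21, and were so in 19 at 96 h. ALDOC, an aldolase, had 1058 to 1466 against 1662 to 4559, and ALDOA 1654 to 2446 against 2755 to 4067. ENO2, an enolase, was the sole one to rise with ICG-001, from 270.1 to 648 against 648 to 1119.9, and SLC2A3, above, the sole one to fall. Each is 4.76% of the list, near the 4.07% of all members that rose and the 2.77% that fell. With DMSO 5 of the 21 rose, beside 1.51% of all members, and none fell. Of 72 oxidative phosphorylation members, UQCR11 of complex III fell in the drug and none rose, with medians of 0.04 and -0.06. That fall is 1.39% of the list, under the 2.77% of all members.

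In cholesterol synthesis, which was below DMSO in 16 of 20 genes at 12 h, 3 genes fell, all beyond DMSO, and 1 rose, against 0 and 0 with DMSO. Of all members 2.77% fell with ICG-001, 1.33% beyond DMSO, and 4.07% rose. SQLE, the squalene epoxidase, went from 737 to 421 against 1313 to 1497, IDI1, an isomerase of the isoprenoid part, from 503 to 308 against 1139 to 1471, and CYP51A1, the lanosterol demethylase, from 791 to 504 against 666 to 851. In SQLE and IDI1 the drug columns were the 2 lowest of 4, with the 96 h column lowest. The list median was -0.12 against 0.13. The sterol sensor gene INSIG1 stood at 413 to 311 against 1109 to 1753, short of 1.5-fold in the drug. In fatty acid synthesis FASN, the synthase, fell from 9249 to 5498 against 10844 to 10296, while ACSS2, which makes acetyl-CoA from acetate, rose in both, from 423 to 879.9 and from 502 to 853. Among genes of fatty acid oxidation and PPAR targets, 3 of 15 rose with ICG-001, beside 4.07% of all members. PPARG, the nuclear receptor itself, rose beyond DMSO, from 445 to 949 against 435 to 480.1.

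WNT genes, the group the drug is aimed at, did not move one way. Of 20 members 7 rose with ICG-001, which is 35.0%, and 2 fell, against none with DMSO and 4.07% and 2.77% of all members, and the medians were 0.40 and 0.16. With all 32 listed genes, those under the limit included, the medians were 0.08 and 0.10, in the reverse order. AXIN2, a scaffold of the beta-catenin destruction complex and a standard WNT target, stood at 249 with ICG-001 at 12 h against 766 with DMSO. At 96 h it was at 617 against 643, so the drug column came up by 2.48-fold to near the control. BAMBI, a decoy receptor, went from 1358 to 2424 against 977 to 1276, SOX9, a transcription factor, from 722 to 1351 against 1058 to 1522, and CD44, a hyaluronan receptor, from 1573 to 2788 against 2174 to 2621. FGF9 rose beyond DMSO, from 259 to 468 against 247 to 214, and PLAUR and BMP4 rose too. The 2 that fell were DKK1 and MYC, whose signals at 96 h were the lowest of their 4 columns. CCND1, cyclin D1, had 8282 to 9808 against 4164 to 4574, and S100A4 had 5455 to 7824 against 10780.3 to 9801, both short of 1.5-fold.

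Genes of the beta-catenin, TCF and acetyltransferase proteins were mostly short of 1.5-fold. CREBBP, the gene of CBP, which the drug binds, had 587 to 538 with ICG-001 and 502 to 481 with DMSO, EP300, the gene of p300, 171 to 173 against 193 to 183, and CTNNB1, the gene of beta-catenin, 400.4 to 354 against 611 to 547. TCF7L2, the main TCF of the colon, had 271 to 317 against 596 to 800.3, with both drug columns under both control columns. BCL9L, a cofactor of beta-catenin, was the sole one of 10 members to pass 1.5-fold, going from 328 to 214 against 237 to 250.3. Its fall was beyond DMSO, where 2.77% of all members fell and 1.33% fell beyond DMSO.

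In the mesenchymal and TGF-beta list, 5 of 11 members rose with ICG-001, 4 of them beyond DMSO, and none with DMSO. Of all members 4.07%, 1.73% and 1.51% did so, respectively. Of the 11, 3 had a ratio under 0 with ICG-001. The 5 that rose are immediate targets or feedback inhibitors of BMP or TGF-beta signalling rather than mesenchymal structural genes. ID1, an inhibitor of helix-loop-helix factors, went from 2118 to 3996 against 2908 to 3341 and ID3 from 1001 to 1526 against 2548 to 2547. The inhibitory SMAD genes SMAD6, with 159 to 306 against 224 to 282, and SMAD7, with 167 to 263 against 176 to 181, rose as well, as did ID2. With C646 3 of the 11 rose, beside 3.78% of all members.

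In the list of AP-1, ERK output and EGFR ligands 5 of 28 fell with ICG-001, which is 17.9% beside 2.77% of all members, all 5 beyond DMSO, where the share of all members is 1.33%, and none rose, while 4 rose with DMSO and none fell. EREG, the EGFR ligand epiregulin, went from 1555 to 693 against 906 to 727, and the others were FOS, EGR1, DUSP5 and ATF3. JUN, with 820.2 to 917 against 467 to 594, stood above DMSO at both times without a change past 1.5-fold. Of 11 YAP targets TEAD4 fell, from 362 to 224 against 278 to 249, and none rose. That is 9.09% of the list, beside 2.77% of all members.

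Markers of intestinal differentiation were mostly under the limit, with 13 members of 47 genes listed. Of the 13, 4 rose with ICG-001 and 2 with DMSO, beside 4.07% and 1.51% of all members. Besides GCNT3 the rises with ICG-001 were CA2, a carbonic anhydrase of absorptive cells, from 659 to 1098 against 1574 to 1316, FCGBP, a goblet cell mucus protein, from 199 to 299 against 151 to 167, and KLF4, a transcription factor of goblet cells, in both treatments, from 761 to 1316 and from 512 to 1081. CA2 started under the control and ended closer to it. All 8 keratins had a ratio under that of DMSO, and 2 fell, KRT81 from 440.2 to 214 against 148 to 133 and KRT23 from 261 to 148 against 219 to 230.3. Both falls were beyond DMSO, where 2.77% of all members fell and 1.33% fell beyond DMSO. The 96 h signal of KRT23 with ICG-001 was close to the limit of 143.

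Lysosomal enzymes and membrane proteins rose in 6 of 18 members with ICG-001, which is 33.3%, and in 2 with DMSO, with none falling, where 4.07% and 1.51% of all members rose. TPP1, a lysosomal peptidase, went from 433 to 949 against 552 to 777, CTSB, cathepsin B, from 535 to 1041 against 553 to 855, and PSAP, which activates sphingolipid hydrolases, from 6711 to 12489 against 4617 to 6843. At 12 h 15 of the 18 were lower with ICG-001 than with DMSO, and at 96 h 5 were. MAP1LC3B, the autophagosome protein LC3B, went the other way, from 4213 to 1929 against 1052 to 1175. It was the sole one of the 9 autophagy genes listed to pass 1.5-fold with the drug. ATG12, described above and not on that list, fell past 1.5-fold as well. Of 24 interferon-stimulated members 5 rose and 1 fell with ICG-001, beside 4.07% and 2.77% of all members. TAP1, the peptide transporter of antigen presentation, went from 728 to 1444 against 859.9 to 1047, and B2M, the light chain of class I molecules, from 4686 to 7078 against 5672 to 7484. Others of that list had lower ratios with ICG-001, as in IFI6 at 497 to 353 against 738 to 1165 and IFITM3 at 4288 to 3183 against 3805 to 5939.9, and the list medians were 0.09 and 0.28.

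Several lists had at most 2 genes past 1.5-fold with ICG-001. Of 20 p53 targets 1 rose with ICG-001, TP53INP1, which rose with DMSO as well, while 8 rose with C646. Of all members 4.07% rose with ICG-001 and 3.78% with C646. CDKN1A, the cell cycle inhibitor p21, had 3890.0 to 4269 with ICG-001, 1864 to 1968 with DMSO and 2042 to 5072 with C646, so that its drug level was above the control at both times and did not pass 1.5-fold over time. None of 6 CDK inhibitor genes did. Besides LCN2, none of the 18 members of the mucosal defence and NF-kB list did either, as in NFKBIA at 1214 to 1666 against 1292 to 1277. Of 7 stem cell genes 2 rose, KLF4 and ALCAM, both with DMSO as well. That is 28.6% in each treatment, beside 4.07% of all members with ICG-001 and 1.51% with DMSO.

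**Figure D5:**
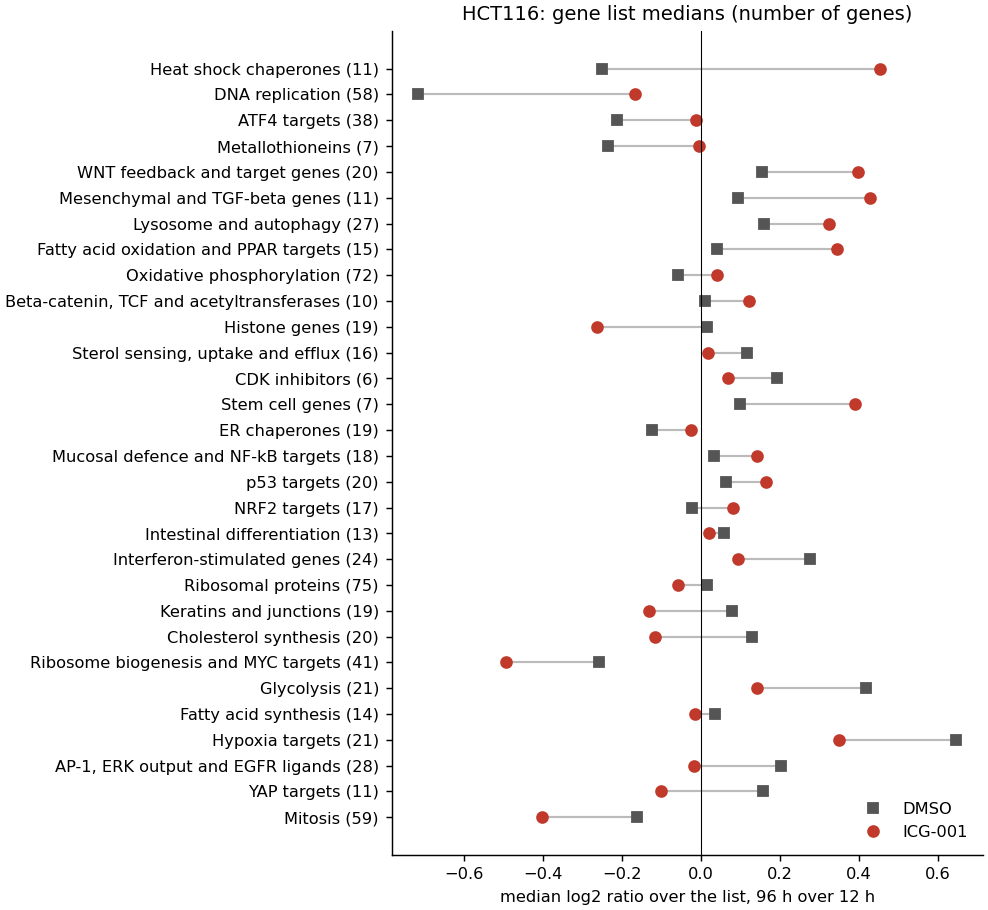
Median log2 ratio of 96 h over 12 h (horizontal axis) over the members of 30 gene lists (vertical axis, number of genes in brackets) with ICG-001 (red circles) and DMSO (grey squares), ordered by the median difference between the treatments. Heat shock chaperones, at 0.45 and -0.25, and DNA replication, at -0.17 and -0.72, lie at one end, and mitosis, at -0.40 and -0.16, at the other.

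Across all members the ratio with ICG-001 correlated with that of DMSO at a Pearson r of 0.40 (Spearman rho 0.36) and with that of C646 at 0.44 (0.40), while DMSO and C646 correlated at 0.79 (0.70). These are over 17118 rows of 6 columns with no column in common within a pair, and rows are not independent replicates. With C646 647 of the same rows rose (3.78%) and 559 fell (3.27%). Of the 697 rows that rose with ICG-001, 217 rose with C646, which is 31.1% of the first list and 33.5% of the second, and of the 474 that fell 107 fell with C646, which is 22.6% and 19.1%. DMSO and C646 shared 195 rises, which is 75.6% of those of DMSO and 30.1% of those of C646, and 190 falls, which is 73.1% and 34.0%. With C646 GCNT3 had a log2 ratio of 0.61, past 1.5-fold, while LCN2 and FGF19 had 0.34 and 0.29, short of it.

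In PANC1, 15369 of the members were above the limit in at least 1 of its ICG-001 columns, and 352 of these rose (2.29%) and 296 fell (1.93%) between 12 and 96 h. The log2 ratios with ICG-001 correlated between the lines at a Pearson r of 0.34 (Spearman rho 0.33). The PANC1 ratios are of ICG-001 alone and, unlike the HCT116 calls beyond DMSO, were not set beside DMSO. Of 270 rows that rose beyond DMSO in HCT116 and were above the limit in PANC1, 46 rose there, which is 17.0% of the first list and 13.1% of the PANC1 rises, and 4 fell. Of 192 that fell beyond DMSO, 30 fell in PANC1, which is 15.6% and 10.1%, and 3 rose. Among the genes with the largest changes, the log2 ratio with ICG-001 in PANC1 was 0.14 for LCN2, -0.05 for GCNT3, 0.63 for DPYSL2 and -0.54 for DKK1, and TAGLN rose there. SQLE and TAP1 had -0.62 and 0.99, the same directions as in HCT116.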

How the data were processed

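The deposited table holds 1 column of linear intensity per group, which the authors made by averaging 2 arrays per HCT116 column (3 for ICG-001 at 12 h in PANC1) after quantile normalization without background subtraction in GenomeStudio. Groups came from the labels. Rows were named by RefSeq symbol, older symbol of 1 gene or gene identifier, and 10814 of 34687 rows matched none. For each row the log2 ratio of 96 h over 12 h was computed with Python 3.11.15, numpy 2.4.6, pandas 2.3.3 and scipy 1.17.1, and figures were drawn with matplotlib 3.10.9. No pseudocount was added. A row was called at 1.5-fold. With 1 column per group there was no test, error or p-value. Normexp used limma 3.58.1 in R 4.3.3. The calling step was tested on simulated data. Median signals were 139 to 139.6 in the HCT116 columns. Alternatives varied the fold, limit, filter, background correction, centring, normalization, naming and control.

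Members and gene lists were chosen with earlier results of these data known. Named genes were the 10 largest rises and falls beyond DMSO, the 4 largest each way with DMSO, the 4 largest gaps each way against DMSO, up to 4 per list by size plus those needed to describe a role, and a fixed set of drug target genes. DUSP5 and FOS, further against-DMSO genes, were named beyond that rule as list members. Motifs were searched in the promoters of RefSeq (GRCh38.p14), and printed promoters were chosen after the search. Some genes that the rule names are not reported here.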

Additional observations from a re-analysis of the deposited data

Results flagged for a closer look

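In 7 named genes the ratio of 96 h over 12 h lay past 1.5-fold in one direction with ICG-001 and in the other with DMSO. Each rests on single columns, so the difference between treatments was not tested. The log2 ratio with ICG-001 minus that with DMSO was -2.33 for the glucose transporter gene SLC2A3, -2.17 for ARRDC4, -2.08 for VGF, -2.02 for EGR1, -1.96 for DUSP5 and -1.86 for FOS, all of which fell with the drug. It was 1.60 for the chaperone gene HSPA8, which rose with the drug.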

How the results depend on the processing

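Of the rows changed with ICG-001, changed with DMSO on its own, changed beyond, with and against DMSO, the counts in that order were 1171, 518, 524, 143 and 15 at 1.5-fold. They moved to 5032, 3620, 2832, 1671 and 298 at 1.2-fold and to 196, 49, 87, 11 and 0 at 2-fold. With background correction by normexp and quantile normalization they were 3110, 1467, 1602, 498 and 55, and the share of rises among rows changed against DMSO went from 13.3% to 30.9%. Under the other alternatives the counts stayed within 1.5 times those at the reported setting. With C646 in place of DMSO 421 rows changed beyond it, of which 372 were among the 524, and the split was 209 higher and 212 lower, against 296 and 228 with DMSO. At 1.2-fold the DMSO split went from 258 higher and 260 lower to 1932 and 1688. The filter on dim rows leaves the ratio of a gene as it is by construction. Direction was checked in the 150 named genes only, under background correction, centring and quantile normalization over all columns. None of those past 1.5-fold changed direction. Of the 30 list medians with ICG-001, 3 crossed 0, that of sterol sensing, uptake and efflux (-0.02 to 0.03), of metallothioneins (-0.02 to 0.01) and of stem cell genes (-0.02 without the filter to 0.70), the medians of the WNT list turned their order without the filter (0.08 with ICG-001, 0.10 with DMSO), those of intestinal differentiation at a limit of 5 SD (0.49 and 0.15), and that of mesenchymal and TGF-beta genes went from 0.43 to 0.08 without the filter, and 9 lists moved under normexp and 8 without the filter. Of 150 named genes 124 kept their side of 1.5-fold under normexp, without a shift in size in those short of it. Size was not compared in genes past 1.5-fold, 16 others came to pass it, and 10 stayed short of it but changed in size. No paired analysis was possible because each column is already the mean of its arrays. With 2 arrays behind a column and no single-array values used here, the number of arrays limits the precision, and the signal left by background limits the ratios of dim rows.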

Other observations

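Rows of small nucleolar RNAs and of their host genes were looked at after their values were seen. Small nucleolar RNAs guide the chemical modification of ribosomal and spliceosomal RNA, and many are cut from introns of host genes. Whether a row of such an RNA reads the mature RNA or its host transcript cannot be told from these values. Of 19 rows of host genes named SNHG, 16 were members, and 8 fell with ICG-001, 7 of them beyond DMSO, while none changed with DMSO. Of all members 2.77% fell with ICG-001 and 1.33% beyond DMSO. The median log2 ratio of the SNHG members was -0.59 with ICG-001, 0.00 with DMSO and 0.03 with C646. SNHG1 had signals of 8227 at 12 h and 3406 at 96 h with ICG-001, and of 3682 and 3265 with DMSO. SNHG15 had 3471 and 1569 with ICG-001, and 1050.4 and 806 with DMSO. In both genes the drug column stood above the control at 12 h. SNHG9 had 2109 and 907 with ICG-001, and 2851 and 2424 with DMSO, so it ended below the control. Of 307 rows of small nucleolar and small Cajal body RNAs 147 were members, and 9 fell with ICG-001, all beyond DMSO, while 2 rose with DMSO. The median log2 ratio of the 147 was -0.14 with ICG-001 and -0.03 with DMSO. In the brightest part of all members 312 of 5706 rows fell with ICG-001. SNORA12 had 1897 and 752 with ICG-001, and 2703 and 2740.4 with DMSO.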
